A study of Mus musculus with 8 samples.

Results

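The INK4 and CIP/KIP genes encode inhibitors of the cyclin-dependent kinases, and CpG methylation was read here at 6 of them, the INK4 genes Cdkn2a, Cdkn2b, Cdkn2c and Cdkn2d and the CIP/KIP genes Cdkn1a and Cdkn1b. The genes were chosen by name, and each CpG cytosine inside a gene or within 2000 bp of it was taken (mm10), which gave 1633 of the 4006353 positions in the deposited table. A gene was cut into its start end and its far end, each running from 1000 bp outside to 500 bp inside the gene, and the rest between them. Reads that called a cytosine methylated and reads that called it unmethylated were summed over each such unit in each library. A read counts once at each CpG it covers, so the numbers of reads given below are CpG calls, and fewer molecules may stand behind them. Of the 18 units of the 6 genes, 12 had 20 or more reads in each of the 8 libraries and were measured.

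The libraries were made by reduced representation bisulfite sequencing (RRBS), in which bisulfite conversion tells methylated from unmethylated cytosines in CpG-rich restriction fragments. The DNA came from leukaemic progenitors labelled I1DN, sorted as positive for cKit and negative for Cd11b, from mice that had received a transplant of I1DN leukaemic cells. The mice were given AG120 together with AZA (the combination, AG120_AZA in the labels), AG120 alone, AZA alone or Vehicle, each for 5 days and with 2 libraries. AG120 is ivosidenib, an inhibitor of mutant IDH1, AZA is azacitidine, a DNA methyltransferase inhibitor, and the series asks what their combined use does to DNA methylation. All 4 groups carried the I1DN leukaemia, so no group shows these genes in normal progenitors. The alleles behind the name I1DN, the strain and age of the mice, the doses, and the number of mice behind a library are not stated in the labels, nor is it known whether progenitors of the host passed the sort.

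INK4 proteins bind CDK4 and CDK6 and keep D-type cyclins from activating them, while CIP/KIP proteins bind assembled cyclin and kinase complexes, above all those of CDK2. Both families thereby hold back phosphorylation of the retinoblastoma protein and entry into S phase. Cdkn2a and Cdkn2b lie side by side in a locus whose promoter methylation is a known route of silencing in blood cancers, Cdkn2b above all in myeloid leukaemia.

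Cdkn2a has a listed transcript start for Arf, whose protein restrains Mdm2 and so stabilises the Trp53 protein, and a start farther down for Ink4a, whose protein is the founding CDK4 inhibitor. Because of this order the start end of Cdkn2a holds the Arf start, while the Ink4a start lies within the rest of the gene. Some of the promoter windows are shown 5′ to 3′ on the strand of the gene (RefSeq, GRCm38.p6, whose coordinates are those of mm10). Each window runs from 250 bases before to 50 after a listed start. Capitals mark the CpG dinucleotides that were read in any library.
Cdkn2a, Arf start, chr4:89294570-89294869, minus strand: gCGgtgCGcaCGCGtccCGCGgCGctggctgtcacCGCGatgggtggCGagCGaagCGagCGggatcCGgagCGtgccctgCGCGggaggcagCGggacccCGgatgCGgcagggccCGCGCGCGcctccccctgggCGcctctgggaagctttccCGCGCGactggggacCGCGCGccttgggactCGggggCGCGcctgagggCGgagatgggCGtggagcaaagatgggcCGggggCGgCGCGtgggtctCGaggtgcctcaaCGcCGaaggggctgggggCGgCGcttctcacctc
Cdkn2a, Ink4a start, chr4:89282143-89282442, minus strand: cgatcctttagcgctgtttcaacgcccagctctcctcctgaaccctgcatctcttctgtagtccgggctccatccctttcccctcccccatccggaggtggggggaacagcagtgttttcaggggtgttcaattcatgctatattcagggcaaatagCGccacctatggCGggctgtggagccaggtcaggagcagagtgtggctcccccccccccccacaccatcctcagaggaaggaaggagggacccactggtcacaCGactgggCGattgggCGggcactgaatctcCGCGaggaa
Cdkn2b, chr4:89310983-89311282, minus strand: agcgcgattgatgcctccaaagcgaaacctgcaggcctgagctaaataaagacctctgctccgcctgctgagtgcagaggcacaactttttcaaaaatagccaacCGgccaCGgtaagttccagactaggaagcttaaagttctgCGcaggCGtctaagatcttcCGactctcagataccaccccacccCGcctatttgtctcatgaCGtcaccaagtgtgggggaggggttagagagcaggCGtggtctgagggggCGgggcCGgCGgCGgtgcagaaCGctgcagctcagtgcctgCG
Cdkn2d, chr9:21291160-21291459, minus strand: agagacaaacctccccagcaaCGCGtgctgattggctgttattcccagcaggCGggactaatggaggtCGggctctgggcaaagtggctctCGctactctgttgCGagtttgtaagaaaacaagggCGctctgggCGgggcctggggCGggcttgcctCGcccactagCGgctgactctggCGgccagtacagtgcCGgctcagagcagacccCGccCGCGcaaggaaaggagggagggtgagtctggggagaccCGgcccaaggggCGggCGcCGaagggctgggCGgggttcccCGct
Cdkn1b, chr6:134920151-134920450, plus strand: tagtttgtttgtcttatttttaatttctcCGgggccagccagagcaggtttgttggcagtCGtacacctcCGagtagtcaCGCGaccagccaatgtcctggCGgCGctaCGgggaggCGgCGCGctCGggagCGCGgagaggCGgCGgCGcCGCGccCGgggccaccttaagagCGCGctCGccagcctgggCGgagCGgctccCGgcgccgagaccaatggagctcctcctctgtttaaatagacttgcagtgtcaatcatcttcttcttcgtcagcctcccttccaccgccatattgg

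The Arf window is dense in CpGs and was read throughout, with 45 of its 45 CpGs covered in at least 1 library. The Ink4a window has 12 CpGs, of which 7 were read, and these only in AG120 replicate 1. Of the CpGs in the other windows shown, 14 of 18 were read at Cdkn2b, 22 of 22 at Cdkn2d and 26 of 30 at Cdkn1b. The main Cdkn2c window, not shown, was read at 33 of 33 CpGs. Cdkn1a has its first listed start in a window with 2 CpGs, of which 0 were read, and its second start, in the rest of the gene, in a window with 23 CpGs, of which 6 were read. All 9 promoter windows of the 6 genes were found in RefSeq, and the median promoter of all 32851 in that table has 7 CpGs. The letters CCGG, the site of the enzyme usual in RRBS, which reads the same on both strands, occur 3 times in the Arf, Cdkn1b and main Cdkn2c windows and 2 times in the Ink4a, Cdkn2b, Cdkn2d and second Cdkn1a windows. They are in 52.8% of all promoters of this length, and in neither the first Cdkn1a window nor the second Cdkn2c window.

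The libraries held between 90373925 and 130796962 CpG calls in all, but the 6 genes were read less in treated mice. They took 33776 and 28731 calls in the combination, 51133 and 48022 in AG120, 64045 and 65626 in AZA, and 73267 and 78407 in Vehicle. As a share of all calls of a library this was 0.0346 and 0.0318% in the combination, 0.0518 and 0.0436% in AG120, 0.0492 and 0.0511% in AZA, and 0.0613 and 0.0599% in Vehicle. Each treated library thus lay below both Vehicle libraries in depth at these genes. A combination library covered 514 or 555 of the 1633 positions, against 1086 and 1026 in the Vehicle libraries. Only 56 positions were read in all 8 libraries and 27 had at least 10 reads in each, so a unit mostly sums different positions in different libraries. Whether these differences of depth and coverage play a part in the levels below was not tested. Values at shared positions are given for some units as a description. Exact intervals, and the upper limit given where 0 reads were methylated (3 reads of the total), cover counting error only. They are too narrow where calls come from the same read or from PCR copies, which are not independent. Values after ± are SDs over the 2 libraries of a group unless another n is given.

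Most of the measured DNA of the 6 genes was nearly unmethylated in every group. Over the 7 measured gene ends the median of the mean level was 2.90%, and 7 of 7 lay under 20%, against a median of 2.73% and 73.7% under 20% over all 15591 gene ends tested. Between the ends, 5 of the 6 genes had a measured unit. These had a median of 5.82%, and 4 of 5 lay under 20%, the exception being Cdkn2a, against a median of 61.7% and 19.5% under 20% over 15826 such units. In the rest of Cdkn2c, at least 99.0% of reads belonged to a stretch that spans its start and ends 890 bp past it. In the rest of Cdkn1b, 100% came from a stretch between 475 and 1737 bp past its start. Both units thus hold DNA near a start and do not show the gene farther down. In the rest of Cdkn2d, 77.0 to 100% of reads came from a stretch that spans its start, except in AG120 replicate 2 with 13.8%. In the rest of Cdkn1a, 44.4 to 86.4% came from a stretch between 423 and 1287 bp past its second start. A stretch from 4607 to 5048 bp past that start took 1.68 to 22.9%. The 4 low units were thus read mostly near a start, which limits their comparison with other genes. Single positions showed the same low state. Among positions of the 6 genes with at least 20 reads, between 87.5 and 94.8% were at exactly 0% in a library, against 48.6 to 59.7% of such positions in the whole table. There were 20 positions at which each library had 20 or more reads, and 17 of them were at 0% in all 8.

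**Figure D1:**
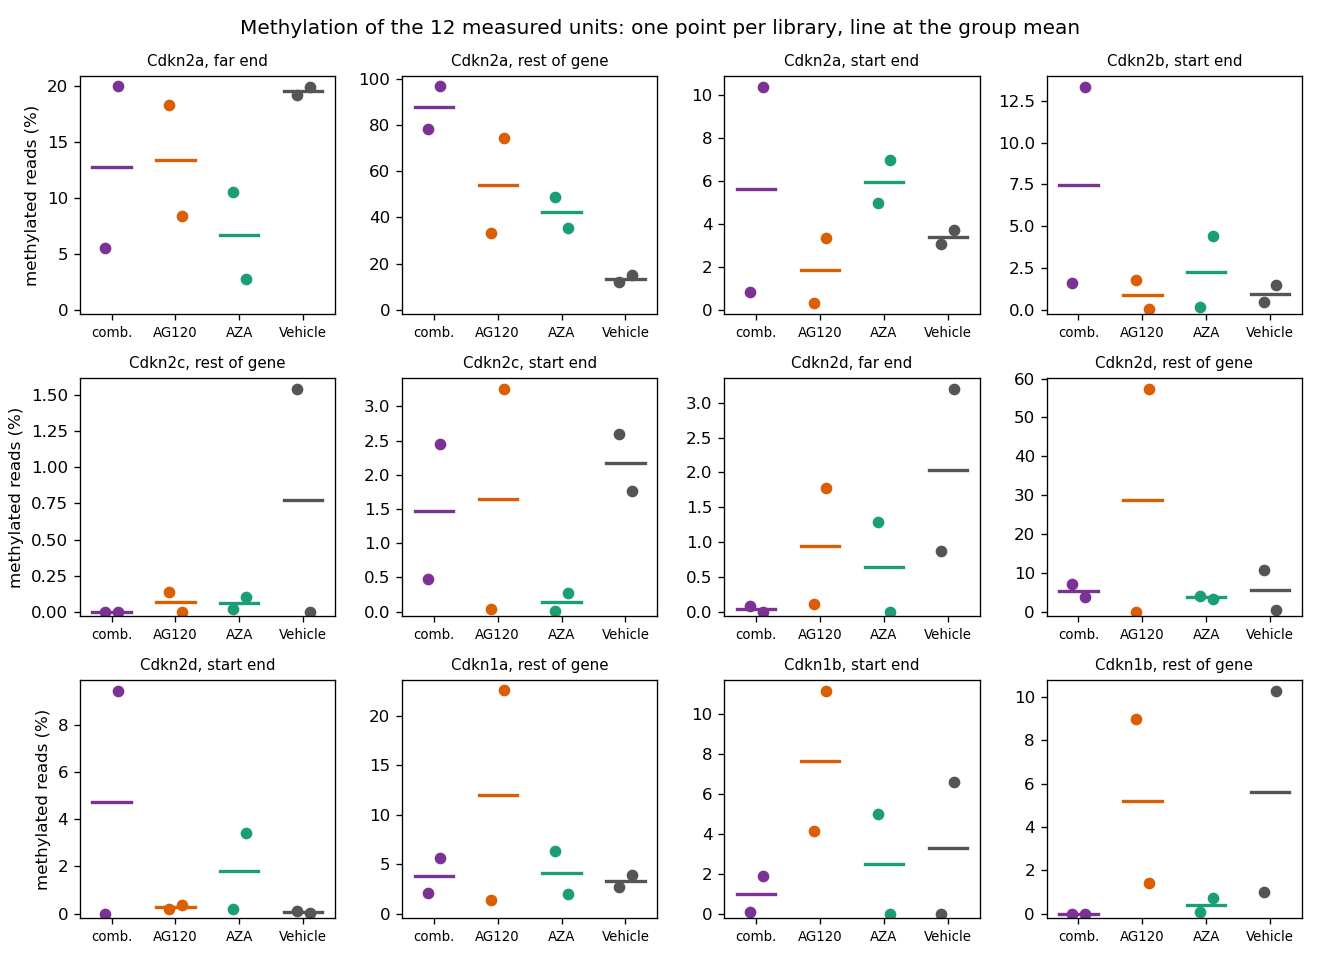
Methylated reads as a percent of all reads in each of the 12 measured units of the 6 genes, with 1 point per library and a line at the mean of each group, from the combination on the left to Vehicle on the right; each panel has its own scale. Cdkn2a, rest of gene, is the unit with the widest range, 11.8 to 97.1%, and in most panels the 2 libraries of a group lie as far apart as the groups do.

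Ordered by the mean over the 8 libraries, the rest of Cdkn2a stood first with 49.3% ± 31.1 (SD, n = 8). The far end of Cdkn2a followed with 13.1% ± 7.07, the rest of Cdkn2d with 10.8% ± 19.1, and the rest of Cdkn1a with 5.82% ± 7.01. The start ends came next, Cdkn2a with 4.20% ± 3.28, Cdkn1b with 3.61% ± 3.94 and Cdkn2b with 2.90% ± 4.43. The lowest were the rest of Cdkn1b with 2.81% ± 4.26, the start ends of Cdkn2d with 1.72% ± 3.3 and of Cdkn2c with 1.36% ± 1.31, the far end of Cdkn2d with 0.917% ± 1.1 and the rest of Cdkn2c with 0.224% ± 0.535. The step from the rest of Cdkn2a to its far end was larger than either SD. Every other neighbouring pair in this order differed by less than the larger of its 2 SDs.

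The Arf start of Cdkn2a stayed nearly unmethylated. Its start end (chromosome 4, 89294119 to 89295619), where part of the gene Gm12610 also lies, had 0.818 and 10.4% in the combination, 0.323 and 3.34% in AG120, 4.95 and 7.0% in AZA, and 3.08 and 3.69% in Vehicle. The 2 combination libraries enclosed all the others but AG120 replicate 1, while both AZA libraries lay above both Vehicle libraries. Within the promoter window printed above, the level was at most 2.82% (AZA replicate 2) in any library, and 0% in combination replicate 1, AG120 replicate 1 and AZA replicate 1. At the 14 positions of the start end read in all libraries, the combination had 1.88 and 0.284%, AG120 1.68 and 6.49%, AZA 4.11 and 1.60%, and Vehicle 0 and 1.70%. The 10.4% of combination replicate 2 was thus not present at positions that the other libraries share.

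The rest of Cdkn2a (chromosome 4, 89274974 to 89294118), which holds the Ink4a start, was the unit with the largest differences between groups. It had 78.5 and 97.1% methylated reads in the combination, 33.5 and 74.3% in AG120, 49.0 and 35.5% in AZA, and 11.8 and 14.9% in Vehicle. Both libraries of every treated group lay above both Vehicle libraries, and both combination libraries above all the others. Over the whole table, 50.5 and 48.0% of calls were methylated in the combination and 41.5 and 49.9% in AG120. AZA had 39.2 and 36.9% and Vehicle 34.1 and 32.6%, so there too every treated library lay above both Vehicle libraries. The reads behind these levels numbered 274 and 1077 in the combination, 4600 and 1353 in AG120, 1312 and 1948 in AZA, and 844 and 562 in Vehicle.

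The reads came from different places in different libraries. Covered positions of a gene were joined into runs wherever neighbours lay within 100 bp. The run nearest to the Arf start (chromosome 4, 89293524 to 89293601, 6 positions, between 1018 and 1095 bp past that start) was fully methylated in 6 libraries of all 4 groups. All of its 210 and 1039 reads in the combination were methylated, as were 852 of 1062 and 870 of 870 in AG120, 54 of 54 and 595 of 1076 in AZA, and 93 of 93 and 69 of 69 in Vehicle. The exceptions were AG120 replicate 1 with 80.2% and AZA replicate 2 with 55.3%. The share of the unit's reads that fell in this run differed between libraries. It was 76.6 and 96.5% in the combination, 23.1 and 64.3% in AG120, 4.12 and 55.2% in AZA, and 11 and 12.3% in Vehicle. Whether this share plays a part in the level of the unit was not tested. At the 3 positions read in all libraries, each within this run, both combination libraries and both Vehicle libraries stood at 100%, AG120 at 80.2 and 100%, and AZA at 100 and 52.2%. The combination and Vehicle did not differ at these 3 positions, where Vehicle stood at 100% and a higher level in the combination was not possible.

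Without that run, an alternative chosen after the data were seen, the rest of Cdkn2a had 7.81 and 18.4% in the combination, from 64 and 38 reads, 19.4 and 28.0% in AG120, 46.8 and 11.1% in AZA, and 0.932 and 3.04% in Vehicle. All 6 treated libraries were still above both Vehicle libraries. Most of the methylated reads that were left in AG120 and AZA lay in a run that spans the Ink4a start. This run lies from 92 bp before to 235 bp past that start (chromosome 4, 89281957 to 89282284). The methylated reads all lay past the printed window. Inside that window AG120 replicate 1 had 14 reads over 7 positions, of which 0 were methylated, and the other libraries had 0 reads. The reads of those libraries in the run began 158 bp past the start or farther, and those of AZA 167 bp past it, so the start itself was barely read. Over the run, combination replicate 1 had 0 reads. Combination replicate 2 had 8 reads over 8 positions, of which 1 read was methylated. In AG120, 688 of 2747 and 135 of 432 reads (25 and 31.2%) were methylated, in AZA 581 of 887 and 96 of 168 (65.5 and 57.1%), and in Vehicle 7 of 387 and 12 of 40 (1.81 and 30%). Both AZA libraries lay above both Vehicle libraries, AG120 overlapped Vehicle, and the combination was barely read. These runs were picked out after their values were seen, and no test was made on them.

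**Figure D2:**
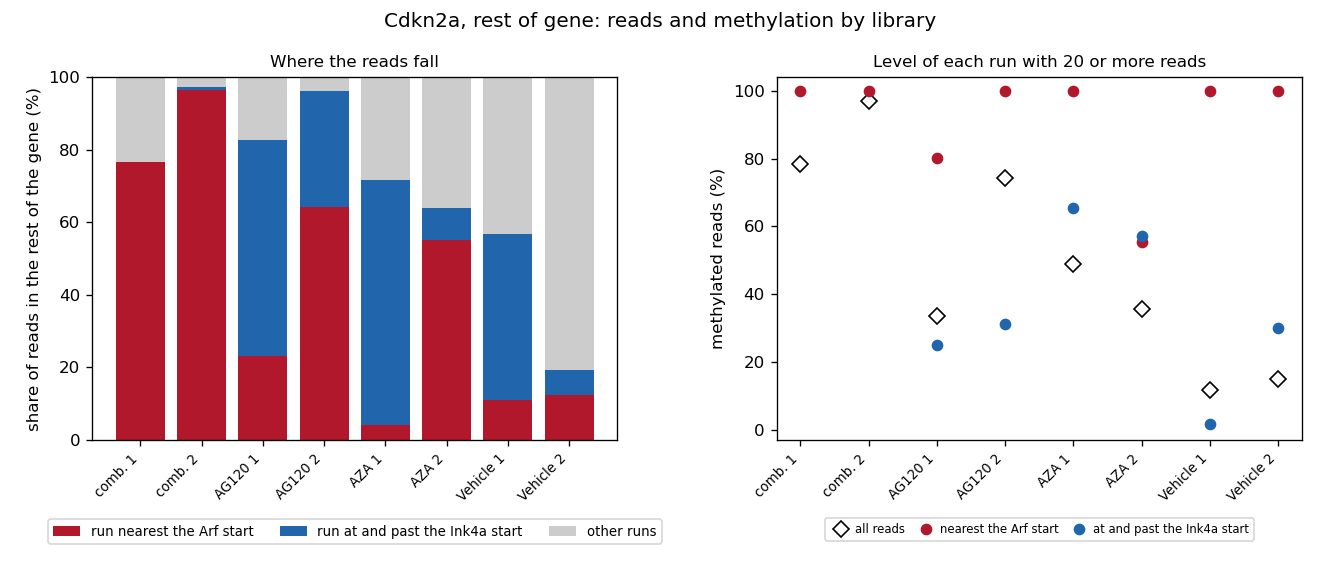
Left, the share of reads in the rest of Cdkn2a that fell in the run nearest the Arf start, the run that spans the Ink4a start or any other run, as stacked bars in percent for each library; right, the percent of methylated reads over the whole unit (diamonds) and in those runs with 20 or more reads (circles). The run nearest the Arf start is at 100% in 6 of the 8 libraries, and it takes 76.6 and 96.5% of the reads in the combination and 11 and 12.3% in Vehicle.

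The far end of Cdkn2a (chromosome 4, 89273473 to 89274973) had 5.50 and 20% in the combination, 18.2 and 8.40% in AG120, 10.5 and 2.77% in AZA, and 19.2 and 19.9% in Vehicle. Both AG120 libraries and both AZA libraries lay below both Vehicle libraries, while the combination enclosed them. Combination replicate 2 rested on 45 reads, with an exact 95% interval from 9.58 to 34.6%, which takes each call as independent. No position of this unit was read in all 8 libraries.

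Cdkn2b, the neighbour of Cdkn2a, encodes an INK4 protein known for its induction by TGF-beta. Its start end (chromosome 4, 89310532 to 89312032) had 1.58 and 13.3% in the combination, 1.79 and 0.0220% in AG120, 0.168 and 4.39% in AZA, and 0.474 and 1.46% in Vehicle. Both combination libraries were above both Vehicle libraries, but replicate 1 by little, at 3 methylated of 190 reads. In the printed promoter window, Vehicle replicate 1 had 2.62% and combination replicate 1 had 1.70%, while the other libraries with reads there had 0%. Combination replicate 2 had 0 reads in that window, so its 13.3% lay elsewhere in the unit. The rest of Cdkn2b missed the minimum with 19 reads in AG120 replicate 2, and 0 positions were covered at its far end.

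Cdkn2c encodes an INK4 inhibitor that in mice also limits the self-renewal of blood stem cells. Its start end (chromosome 4, 109666256 to 109667756) had 0.478 and 2.45% in the combination, 0.0352 and 3.25% in AG120, 0.0114 and 0.277% in AZA, and 2.59 and 1.76% in Vehicle. Both AZA libraries lay below both Vehicle libraries, and those of the combination and of AG120 overlapped Vehicle. Within its main promoter window the level was 0 and 9.96% in the combination and 0.113 and 8.61% in AG120. AZA had 0 and 0.604% there, and Vehicle 5.60 and 0.826%. The rest of the gene was at 0% in both combination libraries and at no more than 1.54% in any library. Its 636 and 2096 reads in the combination allow up to 0.472 and 0.143%. At the 5 positions of both units read in all libraries, every read was unmethylated. The second listed start of Cdkn2c lies in the rest of the gene, and 0 of its 8 CpGs were read. Only past the far end, between 1000 and 2000 bp outside the gene, was methylation high, with 100 and 100% in the combination, 88.7 and 99.1% in AG120, 99.6 and 74.2% in AZA, and 94.0 and 100% in Vehicle.

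Cdkn2d encodes a further INK4 inhibitor of CDK4 and CDK6. Its start end (chromosome 9, 21290921 to 21292421) had 0 and 9.43% in the combination, 0.196 and 0.348% in AG120, 0.211 and 3.40% in AZA, and 0.107 and 0.0273% in Vehicle. Combination replicate 2 stood above the rest, with 111 methylated reads that all fell in the printed window, where 674 reads were made, while combination replicate 1 had 0 of 2661 reads in the unit, which allows up to 0.113%. Both AG120 and both AZA libraries lay above both Vehicle libraries, on 1 and 6 methylated reads in AG120 and 3 and 143 in AZA. The far end (chromosome 9, 21287459 to 21288959), which overlaps the gene Kri1, had 0.0823 and 0% in the combination, 0.116 and 1.78% in AG120, 1.29 and 0% in AZA, and 0.874 and 3.20% in Vehicle. At the 7 positions of the far end read in all libraries, 1 read in Vehicle replicate 2 was methylated and all other reads were not.

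The rest of Cdkn2d ranged widely, with 7.12 and 3.65% in the combination, 0 and 57.3% in AG120, 4.13 and 3.28% in AZA, and 10.8 and 0.499% in Vehicle. The libraries of AG120 thus held both the lowest and the highest value. A run between 1954 and 2175 bp past the listed start (chromosome 9, 21289034 to 21289255) held all methylated reads of AG120 replicate 2 (759 of 1142) and had 0 reads in AG120 replicate 1. The same run had 81 of 340 reads methylated in combination replicate 1, 75 of 225 and 24 of 124 in AZA, and 287 of 613 and 14 of 70 in Vehicle, and 0 reads in combination replicate 2.

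Cdkn1a, a target of Trp53, encodes the CIP/KIP protein that stops the cycle after DNA damage. 0 positions were read at either end of the gene, and the rest of the gene (chromosome 17, 29091480 to 29100221), which holds the second listed start, had 2.05 and 5.65% in the combination, 1.34 and 22.6% in AG120, 6.36 and 1.96% in AZA, and 2.74 and 3.91% in Vehicle. AG120 replicate 2 stood above the other libraries, and every treated group enclosed or overlapped Vehicle. Next to the second listed start, in a run from 146 to 84 bp before it, 6 libraries had 0% and the exceptions were combination replicate 1 with 25% (9 of 36 reads) and AG120 replicate 2 with 6.92%. A run between 4607 and 5048 bp past that start (chromosome 17, 29098376 to 29098817) was methylated at 52.5% over all libraries, against 0.472 to 3.13% in the other runs of the gene. It had 4.28 and 50.2% in the combination, 79.8 and 84.6% in AG120, 40.2 and 14.4% in AZA, and 63.5 and 79.6% in Vehicle. This run took 22.9% of the unit's reads in AG120 replicate 2 and 1.68 to 13.1% in the other libraries. Whether that share plays a part in the level of the unit was not tested. The 4 libraries with AZA, alone or in the combination, lay below the 4 without it in this run. Among all units tested, 1.55% were lower in each library with AZA than in each without, and this run was picked out after its values were seen, so no test was made. Over the 19 positions of the unit read in all libraries, the combination had 1.18 and 3.52%, AG120 2.42 and 9.84%, AZA 24.5 and 0%, and Vehicle 16.6 and 11.3%, and the libraries with and without AZA overlapped. Not all of these positions lie in that run, so they do not check its levels.

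Cdkn1b encodes the CIP/KIP protein that keeps resting cells out of the cycle and is itself removed through Skp2. In its printed promoter window every read of every library was unmethylated, with 222 and 702 reads in the combination, 678 and 6 in AG120, 157 and 1193 in AZA, and 1315 and 1098 in Vehicle. The counts allow a level of up to 0.427% in combination replicate 2 and 0.228% in Vehicle replicate 1. The 6 reads of AG120 replicate 2 lay at 6 positions, with a single call at each, which is too little to give a limit. Over the whole start end (chromosome 6, 134919401 to 134920901) the levels were 0.106 and 1.89% in the combination, 4.14 and 11.1% in AG120, 4.98 and 0% in AZA, and 0 and 6.60% in Vehicle. Both combination libraries were below both AG120 libraries, and all 3 treated groups overlapped Vehicle. At the 4 positions of the start end read in all libraries, the combination had 0.138 and 0% and AG120 0 and 11.3%. AZA had 0 and 0% there and Vehicle 0 and 14.8%, and the combination overlapped AG120.

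The rest of Cdkn1b (chromosome 6, 134920902 to 134925024) had 0 and 0% in the combination, 9.0 and 1.39% in AG120, 0.0661 and 0.717% in AZA, and 0.994 and 10.3% in Vehicle. The 4 libraries with AZA lay below the 4 without it. The 122 and 286 reads of the combination allow up to 2.46 and 1.05%, which does not exclude the 0.994% of Vehicle replicate 1. No position of this unit was read in all libraries.

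**Figure D3:**
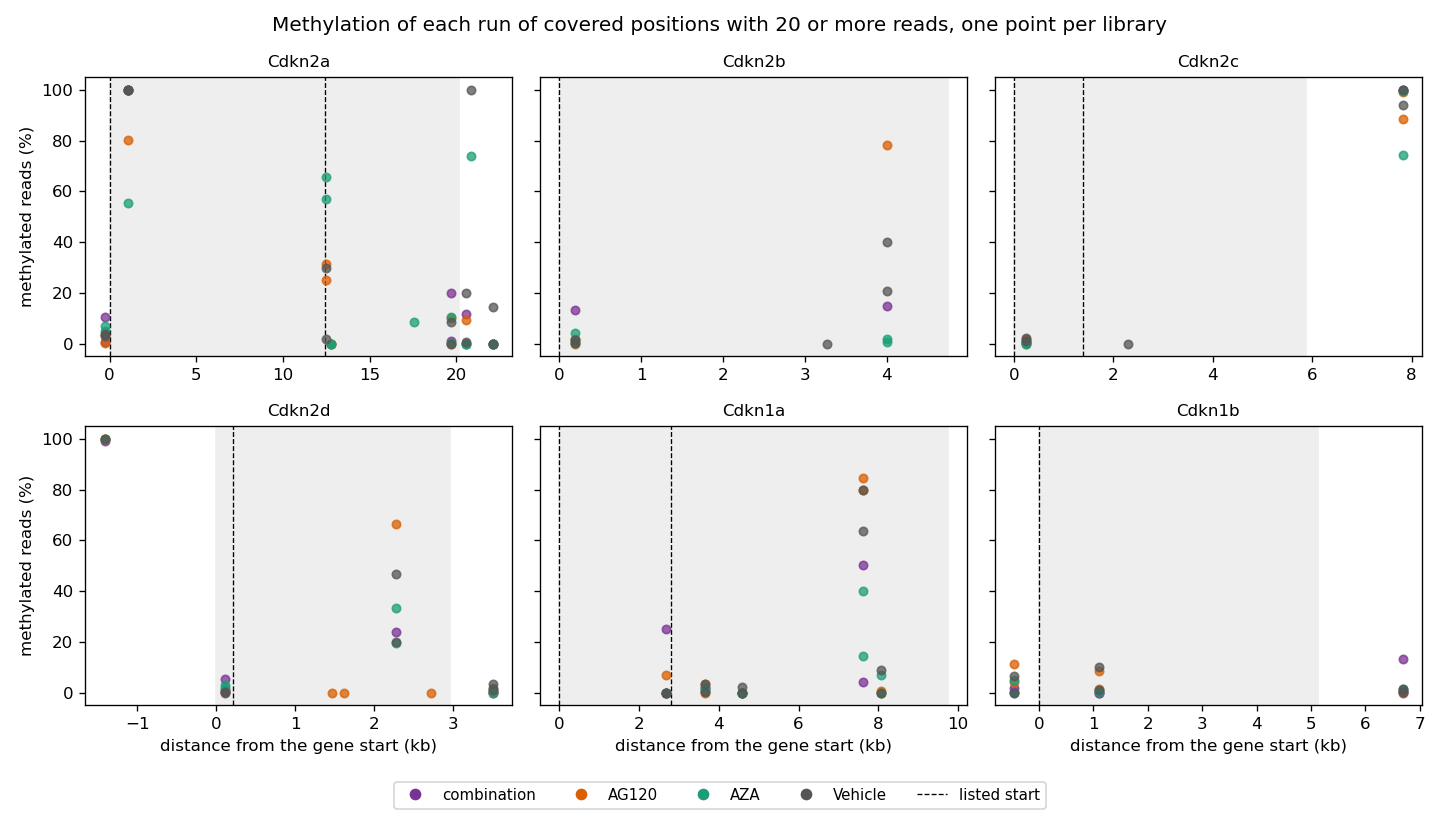
Percent of methylated reads in each run of covered positions with 20 or more reads in a library, against the distance of the middle of the run from the gene start in kb along the strand of the gene, with 1 point per library, coloured by group; the grey area is the gene and dashed lines are listed transcript starts. Most points of runs at the starts lie below 10%, with single libraries higher, at 25% by the second start of Cdkn1a, 13.3% at Cdkn2b, 11.1% at Cdkn1b and 10.4% at the Arf start. The run that spans the Ink4a start, with 1.81 to 65.5%, has its methylated reads past that start, and the run 1018 to 1095 bp past the Arf start stands at 100% in 6 of the 8 libraries.

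The comparison of the combination with Vehicle asks what both drugs do together. Cdkn2a, rest of gene, was 74.4 points higher, at 87.8% ± 13.2 in the combination and 13.4% ± 2.19 in Vehicle, but the difference did not pass the test (edgeR quasi-likelihood test, adjusted p = 0.806 over 31417 units). It was called by edgeR's likelihood ratio test (adjusted p = 0.0351) and by DESeq2 (adjusted p = 0.0131), and not by limma (adjusted p = 0.616). At shared positions, where Vehicle already stood at 100%, the difference was 0 points, and without the run nearest the Arf start it was 11.1 points. Of the 12 units, 2 were higher in both combination libraries than in both Vehicle libraries (the rest of Cdkn2a and the start end of Cdkn2b) and 2 lower (the far end of Cdkn2d and the rest of Cdkn1b), which is 4 of 12 where 37.8% of all units did not overlap. The difference was −5.63 points in the rest of Cdkn1b (edgeR adjusted p = 0.923) and −1.99 points in the far end of Cdkn2d (edgeR adjusted p = 0.920). Without Vehicle replicate 2 these differences were −0.994 and −0.833 points, and without Vehicle replicate 1 they were −10.3 and −3.16 points. The median difference of the 12 units was −0.484 points, against 0.187 over all units.

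For AG120 against Vehicle, the question being what the IDH1 inhibitor does alone, the smallest p again belonged to the rest of Cdkn2a. It had 53.9% ± 28.9 in AG120 and 13.4% ± 2.19 in Vehicle, a difference of 40.5 points (edgeR adjusted p = 1). At shared positions, where Vehicle stood at 100% and a higher level in AG120 was not possible, the difference was −9.89 points. Without the run nearest the Arf start it was 21.7 points. It was 20.1 points without AG120 replicate 2 and 60.9 points without AG120 replicate 1. The groups did not overlap in 3 of 12 units, higher in the rest of Cdkn2a and the start end of Cdkn2d and lower in the far end of Cdkn2a, where 34.2% of all units did not overlap. The median difference of the 12 units was −0.250 points, against 0.289 over all units.

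For AZA against Vehicle, the question being what the methyltransferase inhibitor does alone, the start end of Cdkn2c had the smallest p. It had 0.144% ± 0.188 in AZA and 2.18% ± 0.586 in Vehicle, a difference of −2.03 points (edgeR adjusted p = 1), and at its 2 shared positions both groups stood at 0%. The rest of Cdkn2a was 28.9 points higher in AZA (edgeR adjusted p = 1), and 27.0 points higher without the run nearest the Arf start. At shared positions, where Vehicle stood at 100% and a higher level in AZA was not possible, the difference was −23.9 points. Groups did not overlap in 6 of 12 units, where 33.2% of all units did not overlap. Higher in AZA were the rest and the start end of Cdkn2a and the start end of Cdkn2d, and lower the far end of Cdkn2a, the start end of Cdkn2c and the rest of Cdkn1b. The median difference was −0.761 points, against −0.107 over all units.

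The combination was also set against each drug alone. Against AZA, the rest of Cdkn2a was 45.5 points higher in the combination (edgeR adjusted p = 0.994). The difference was 23.9 points at shared positions, where the combination stood at 100% and could not be lower than AZA. It turned to −15.9 points without the run nearest the Arf start. The groups did not overlap in 4 of 12 units, where 34.8% of all units did not overlap. Against AG120, the rest of Cdkn2a was 33.9 points higher in the combination (edgeR adjusted p = 1). The difference was 9.89 points at shared positions, where again the combination could not be lower, and turned to −10.6 points without that run. It was 13.5 points without AG120 replicate 1 and 54.3 points without AG120 replicate 2. The rest of Cdkn1b had the smallest p against AG120, at 0% in both combination libraries and 5.19% ± 5.38 in AG120 (edgeR adjusted p = 1). Here too 4 of 12 units did not overlap, where 30.8% of all units did not. The median difference of the 12 units was 0.630 points against AZA and −0.376 points against AG120, beside 0.397 and 0 over all units.

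**Figure D4:**
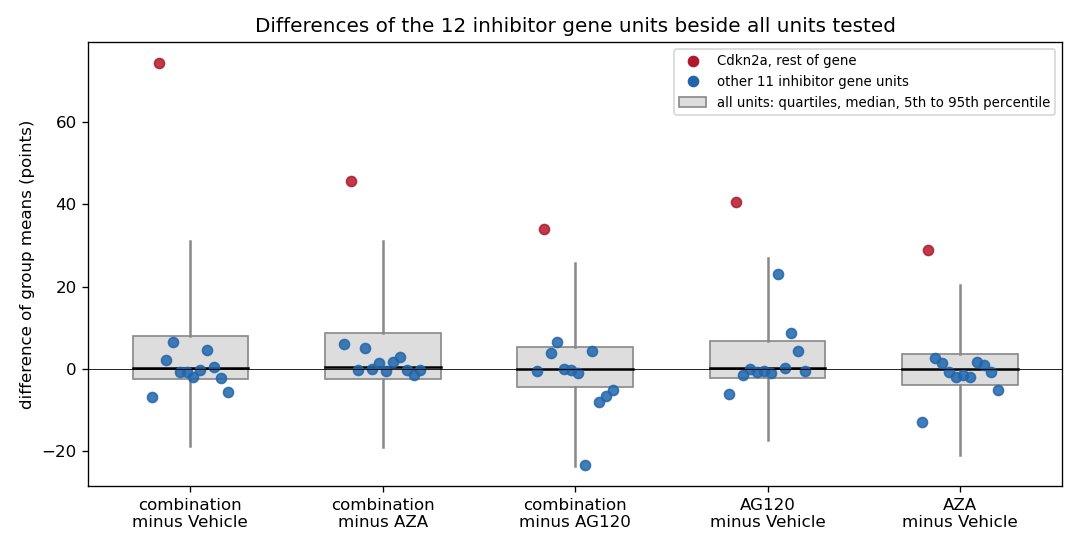
Difference of group means, in percentage points, for each of the 12 units of the 6 genes (points) in each pairwise comparison, beside the quartiles (boxes), median (lines) and 5th to 95th percentile (whiskers) of all 31417 units tested. The rest of Cdkn2a (red) lies above the 95th percentile in each of the 5 comparisons. It stands at 74.4 points in the combination against Vehicle, where that percentile is 31.0. Most other points lie within the boxes or near them. The percentiles mix gene ends with the rest of genes, whose median ranges over the 8 libraries are 9.20 and 35.7 points.

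Each drug was also taken as a factor, the 4 libraries with it against the 4 without it. For AG120, the rest of Cdkn2a was 43.0 points higher, at 70.8% with and 27.8% without AG120 (edgeR adjusted p = 0.896), and the libraries overlapped. At shared positions the difference was 7.01 points and without the run nearest the Arf start 2.93 points. By this factor 0 of 12 units had libraries that did not overlap, where 4.72% of all units had. For AZA, the rest of Cdkn1b had 0.196% with and 5.41% without AZA, a difference of −5.22 points (edgeR adjusted p = 1). Without Vehicle replicate 2 it was −2.90 points and without AG120 replicate 1 −3.32 points. It was the only one of the 12 units, so 1 of 12, in which the libraries with and without AZA did not overlap, where 2.51% of all units did not. For the interaction of the drugs the smallest p among the 12 units, at the start end of Cdkn2c, gave an edgeR adjusted p of 1.

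Over the genome, edgeR's quasi-likelihood test called 0% of units in each of the 8 comparisons, 0 of 31417. At an unadjusted p under 0.05 it had between 789 units, for AZA against Vehicle, and 1795, for the combination against Vehicle. These were 5.71% of units for the combination against Vehicle, 3.69% for AG120 and 2.51% for AZA against Vehicle, 5.38% and 4.65% for the combination against AZA and against AG120, 5.56% and 3.78% for AG120 and AZA as factors, and 3.31% for the interaction. Limma called 0 in each comparison, with 1493 to 2363 units under 0.05. The likelihood ratio test called 207 to 673 units and DESeq2 170 to 877. Among the 12 units of the 6 genes the quasi-likelihood test called 0 in each comparison, and its unadjusted p was under 0.05 for 1 unit each in the combination against Vehicle and with AG120 as a factor (the rest of Cdkn2a) and with AZA as a factor (the rest of Cdkn1b). Each p-value sets a difference between groups against a shared spread, estimated over all 8 libraries and moderated across units. With 2 libraries a group, that spread may be technical.

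A list of 24 genes around these inhibitors, from the cyclins and their kinases to the retinoblastoma and E2F families and with the further inhibitor gene Cdkn1c, was measured in 41 units, with at least 1 unit for each gene. The quasi-likelihood test called 0 of the 41 units higher and 0 lower in each comparison. Ccne2, a cyclin that activates CDK2, had the smallest p of the list for AG120 against Vehicle, in the rest of the gene, at 0.0216% ± 0.0164 in AG120 and 1.28% ± 0.853 in Vehicle (edgeR adjusted p = 1). It also had the smallest p for the combination against AG120, with 1.29% ± 0.880 in the combination (edgeR adjusted p = 0.947). Ccne1, its close relative, had 0% in both combination libraries and 2.97% ± 0.826 in Vehicle at the end with the higher coordinate (edgeR adjusted p = 0.796), and 2.30% ± 1.70 in AZA. Rbl1, a pocket protein of the retinoblastoma family, had 0% in both AZA libraries and 0.507% ± 0.376 in Vehicle, also at the end with the higher coordinate (edgeR adjusted p = 1). All of these levels were within a few points of 0.

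Cdkn1c, the remaining CIP/KIP gene and an imprinted one, was measured in the rest of the gene (chromosome 7, 143458840 to 143460558) and was far more methylated than Cdkn1a or Cdkn1b. It had 58.1 and 22.3% in the combination, 36 and 70.2% in AG120, 63.0 and 67.6% in AZA, and 36.1 and 46.2% in Vehicle, a mean of 49.9%. Both AZA libraries lay above both Vehicle libraries, and the combination enclosed Vehicle.

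Genes with the most similar profile over the 8 libraries were sought for the units that ranged by 5 points or more, among units of other genes with a mean within 10 points. For the rest of Cdkn2a these were the rest of Xpr1 (Pearson's r = 0.986), the rest of Fgf16 (0.977) and an end of Camk2a (0.943), out of 2965 candidates. For the start end of Cdkn2b they were ends of Rps19 (0.991), Edc4 (0.991) and Nutf2 (0.991). The last 2 had the same r and the same mean level, and may not count as separate units. For the start end of Cdkn2d they were ends of Qrsl1 (0.999), Rtn4ip1 (0.999) and Timm10b (0.998). These values rest on 8 libraries, of which 1 often stands far from the others, as combination replicate 2 does at the start ends of Cdkn2b and Cdkn2d. They were chosen as the highest of all candidates, and libraries share their depth over all genes.

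Whether the labelled cell type fits could not be told from these levels, since methylation does not show expression. Of 21 marker genes, 5 had a measured end. The progenitor genes were Kit with 6.16%, Cd34 with 1.94%, Flt3 with 1.59% and Myb with 1.0% over the 8 libraries. The T cell gene Cd4 had 0.572%, below each of the progenitor genes, so these levels do not set progenitors apart. None of the markers of myeloid maturation, of the erythroid line or of stroma and endothelium had an end with 20 reads in every library.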

How the data were processed

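RRBS libraries of sorted I1DN leukaemic progenitors were analysed, 2 per group. The authors deposited raw counts of reads that called each CpG cytosine methylated or unmethylated in each library, per the file headers, with strands listed apart and no normalization. The submitters' processing notes name Bismark 0.22.3 and Trim Galore 0.4.4, edgeR 3.32 with R 4.0.2, SAMtools 1.4.1 and bcl2fastq 2.17.1.14, and mm10 as the build, with no roles. The sources used here state neither deduplication nor a conversion rate. The labels name no batch, so none could be compared. The study's RNA-seq was not analysed here.

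Positions were assigned to units of all genes in a RefSeq gene table (GRCm38.p6), as in the report, with Python 3.11.15 and pandas 2.3.3. Units with 20 or more reads in each of the 8 libraries and both kinds of call were fitted in R 4.3.3 with edgeR 4.0.16, the model holding 1 term for each library and 1 for the methylation of each group. All 4 groups shared 1 fit. The robust quasi-likelihood F-test was two-sided, with Benjamini-Hochberg adjustment over 31417 units of 21520 genes and a threshold of 0.05; scripts were tested on simulated data. Start ends were told from far ends by RefSeq promoters for the 6 genes only; for other genes the ends are named by coordinate. Alternatives were other read, position and window limits, shared positions, equal weight per position, edgeR's likelihood ratio test, limma 3.58.1 (pseudocount 2), DESeq2 1.42.0 (size factors of 1), a replicate block and leaving out each library. Exact binomial intervals (95%) came from SciPy 1.17.1. Replicate numbers did not pair libraries, and the block was an alternative only. The genes, lists, naming rule and tests were chosen with earlier results of these data known. Named were all measured units of the 6 genes, Cdkn1c, the list unit with the smallest p in each comparison, and the 3 units of other genes most like each unit, of which those of 3 units are given.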

Additional observations from a re-analysis of the deposited data

Results flagged for a closer look

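The rest of Cdkn2b, left out of the comparisons because AG120 replicate 2 had 19 reads there, was methylated at 78.2% in AG120 replicate 1 (362 of 463 reads, exact 95% interval 74.1 to 81.9%), above the 21.3 and 39.6% of the Vehicle libraries. It drew attention as a level above both Vehicle libraries in a unit that no comparison used. The other levels there were 11.5 and 33.3% in the combination, from 52 and 27 reads, 36.8% in AG120 replicate 2, and 1.95 and 0.741% in AZA, from 410 and 405 reads. Both AZA libraries thus lay below both Vehicle libraries.

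Between 1000 and 2000 bp past the far end of Cdkn1b, outside the units compared, combination replicate 1 had 13.4% (454 of 3382 reads, exact 95% interval 12.3 to 14.6%), above the 1.42 and 0.0319% of the Vehicle libraries. Combination replicate 2 had 0% there, from 2810 reads, so the 2 libraries of the group did not share the level. AG120 had 0.0700 and 0.0666% and AZA 1.45 and 1.16%. Groups of 2 libraries were not searched for outlying samples.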

How the results depend on the processing

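The number of units called over the genome depended on the test. The likelihood ratio test called 654 units for the combination against Vehicle, 302 for AG120 against Vehicle, 207 for AZA against Vehicle, 673 for the combination against AZA, 667 for the combination against AG120, 600 for AG120 as a factor, 414 for AZA as a factor and 312 for the interaction. DESeq2 called 818, 346, 170, 864, 820, 877, 540 and 417 in the same order, where the quasi-likelihood test called 0 in each. Of the 12 units, both tests called 1 (the rest of Cdkn2a) for the combination against Vehicle. For AG120 as a factor, shared positions gave 1 called unit, and leaving out a library gave 0 to 3, the highest without AG120 replicate 1. The replicate block called 0 units in each comparison and changed no other call; same-numbered libraries deviated from their groups with r between −0.00969 and 0.0123 over 31526 units. The median level of the 12 units, 3.25%, was 0.0999% over the 6 units with positions that had 10 or more reads in every library, when each such position counted once, and 3.14 to 3.68% with a library left out. The cause was not tested. Leaving out a library changed the sign of 76 of 768 differences of the 12 units, and the other settings 32 of 488, of which 16 came with shared positions and 12 with equal weight per position. Depth limits the combination most, at 45 reads in the far end of Cdkn2a and 122 in the rest of Cdkn1b.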
